A study of Mus musculus with 6 samples.

Results

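Of the 54309 genes quantified, 9 genes of Hedgehog signaling were examined, namely the ligands Shh, Dhh and Ihh, the receptor Ptch1, the transducer Smo, the transcription factors Gli1, Gli2 and Gli3, and the ligand-binding inhibitor Hhip. They were chosen by symbol, with the levels of Shh and Dhh in these samples already known, so the comparison of these ligands with each other is given as a description with no test. The samples were left sciatic nerves of C57BL/6 mice aged 6 to 8 weeks, labelled as whole nerve and taken 24 h after a sham operation in which the nerve was exposed at the mid-thigh and not cut. Each sample was a pool of nerves from 2 animals, and there were 3 female and 3 male pools. All animals had the surgery under isoflurane anesthesia, the sources name no genetic change or test drug, and axotomized or unoperated nerves were not analysed here. Nothing in a pool tells the 2 mice apart, so the values below are averages over cells and over animals, and fewer cells of a type cannot be told apart from less RNA per cell.

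Hedgehog ligands bind Ptch1 on the receiving cell and lift its block of Smo, which then acts in the primary cilium to turn Gli proteins into activators of transcription. Gli1, Ptch1 and Hhip are themselves transcribed in response, so their mRNA is widely used as a readout of the pathway, and Ptch1 and Hhip limit it by binding ligand. In peripheral nerve, Dhh is made by Schwann cells and is known for its role in building the perineurium, the sheath around each fascicle. Shh is known as a ligand of the embryo that nerves can make again after injury.

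The pools held 55949876 to 78473057 estimated read pairs. Nerve markers were abundant, with 12 Schwann cell markers summing to between 33899 and 43132 TPM (a length-corrected share of the transcripts in a pool) and 10 perineurial markers to between 599 and 661 TPM. Of 12 keratinocyte and hair follicle markers, 7 had a mean at or under 0.1 TPM, with Krt5 at 0 in every pool and Krt14 at 1 read in a single pool. The 12 together still summed to between 48.7 and 72.2 TPM, and 4 of them had enough reads to test. Skeletal muscle markers summed to 3723 TPM in female pool 2 and to between 18.8 and 239 TPM in the other pools, so results are also given without female pool 2 where that changed a call.

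Dhh was the ligand with the highest mRNA level in all 6 pools, and Shh was the member whose level differed most between pools. Dhh (GRCm39 chr15:98789033-98796439, minus strand) measured 93.6, 95.2 and 79.1 TPM in female pools 1, 2 and 3 and 89.5, 95.8 and 101 TPM in male pools 1, 2 and 3. Its highest pool was within 1.28-fold of its lowest, and the coefficient of variation was 8.14% (n = 6). The mean of 92.4 ± 7.52 TPM (SD, n = 6) placed Dhh at the 89.9th percentile of the 16310 genes with enough reads to test.

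Shh (chr5:28661813-28672254, minus strand) measured 86.3, 30.8 and 1.44 TPM in female pools 1, 2 and 3 and 6.42, 18.2 and 31.7 TPM in male pools 1, 2 and 3. Female pool 1 was the highest and female pool 3 the lowest, so the female pools alone spanned the whole 60.0-fold range, and all 3 male pools lay inside it. The low value did not rest on a few reads, since female pool 3 held 135 estimated Shh reads against 6945 in female pool 1, and the 6 pools held 14518. Only 47 of the 16310 tested genes (0.288%) had a wider range of log2 CPM (the share of a pool's reads) over the pools than the 5.91 of Shh, while 49.1% had a wider range than Dhh. Among 31-base words, 7 of the 2845 in the Shh transcript also occurred in transcripts of another gene and none occurred in Dhh or Ihh.

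Ihh, the ligand best known from cartilage, was close to absent. It measured 0.114, 0.101 and 0.0911 TPM in the female pools and 0.102, 0.0478 and 0.200 TPM in the male pools, from 51 estimated reads in all. It was the only member below the filter for testing. At 4 to 13 reads in a pool, no difference between pools could be detected at this depth.

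**Figure D1:**
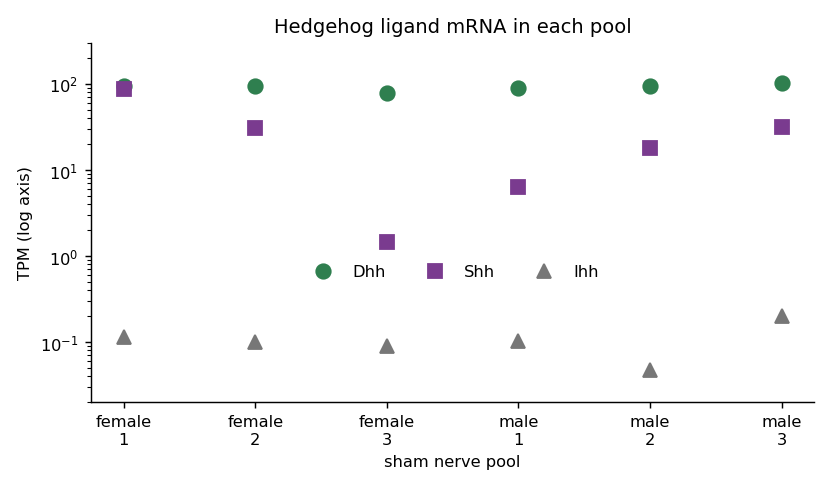
TPM (log axis) of the 3 Hedgehog ligand mRNAs in each sham nerve pool, with 1 point for each gene and pool. Dhh stayed between 79.1 and 101 TPM, Shh ranged from 1.44 to 86.3 TPM, and Ihh did not exceed 0.200 TPM.

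The balance of the ligands therefore differed from pool to pool. Dhh made up 52.0%, 75.5% and 98.1% of the summed ligand TPM in female pools 1, 2 and 3 and 93.2%, 84.0% and 76.0% in male pools 1, 2 and 3. The mean share was 79.8% ± 16.4 (SD, n = 6). In female pool 1 the ligands were nearly equal, with 1.08 times as much Dhh as Shh, and in female pool 3 there was 55.0 times as much. The sum of all 3 ligands went from 80.6 to 180 TPM, and most of that span was Shh. Over the 6 pools, log2(TPM + 0.1) of Shh and Dhh gave r = 0.84 and a rank correlation of 0.60, which is given as a description because this pair was chosen for comparison.

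The spread of Shh was not shared by the receptor, the transducer or the Gli factors. The plot of levels relative to each gene's own mean shows the other members close to 1 in every pool, except Ihh, which rests on very few reads.

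**Figure D2:**
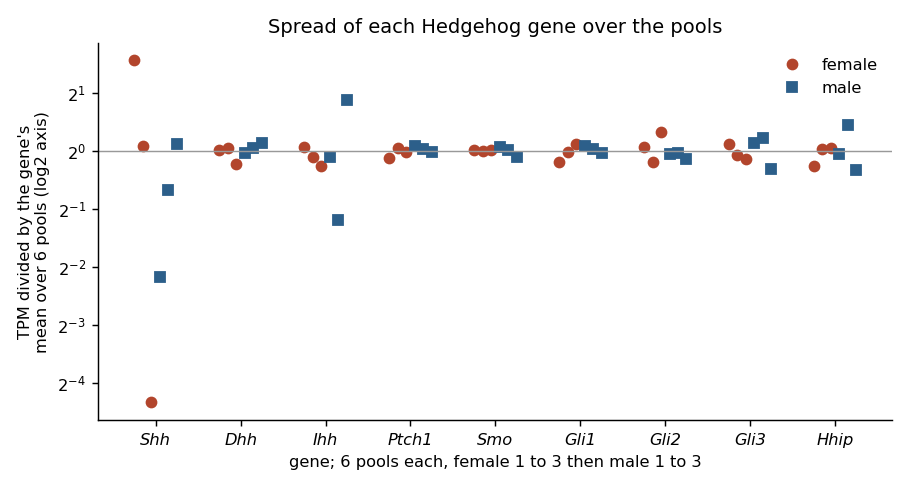
TPM of each Hedgehog gene divided by that gene's mean over the 6 pools (log2 axis), with female pools as circles and male pools as squares. Shh reached a 60.0-fold span between female pool 3 and female pool 1, while Dhh, Ptch1, Smo and Gli1 stayed within 1.28-fold.

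Ptch1 (chr13:63656142-63721412, minus strand), the receptor and a target of the pathway, measured 53.0, 59.7 and 57.0 TPM in the female pools and 61.7, 59.4 and 57.2 TPM in the male pools. Female pool 1, which had the most Shh, had the least Ptch1, and the sexes overlapped. Salmon assigned 83.3% ± 1.41 (SD, n = 6) of Ptch1 TPM to Ptch1-202, 10.8% to Ptch1-201 and 3.51% to Ptch1-204. These transcripts begin at different places, with the start of Ptch1-201 lying 1743 bases and that of Ptch1-204 lying 8925 bases from the start of Ptch1-202.

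The 9-base word TGGGTGGTC, the known binding sequence of Gli proteins, was searched on both strands from 250 bases before to 50 bases after each annotated start. Of 21770 protein-coding genes, 0.202% held it at the start of their canonical transcript, among them 1 of the 9 members, Ptch1. The sites at the Ptch1 starts are shown because Ptch1 is the target whose starts carry the word. Each line reads 5′ to 3′ on the gene's strand, with the word or its reverse complement in capitals and 10 bases on either side:
Ptch1-201 (chr13:63714239-63714267, minus strand, 165 bases before the start): gttgcctaccTGGGTGGTCtctctacttt
Ptch1-204 (chr13:63721269-63721297, minus strand, 13 bases before the start): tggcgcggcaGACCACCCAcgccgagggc
The window at Ptch1-202, which carried 48.3 TPM on average against 6.25 for Ptch1-201 and 2.04 for Ptch1-204, held no copy of the word. The levels of Ptch1-201 went from 5.70 to 6.69 TPM and those of Ptch1-204 from 1.35 to 2.54 TPM over the pools, so neither transcript showed the spread of Shh. A match is a stretch of letters and not a measured binding site, and the assignment of reads among transcripts with a shared body is an estimate by the software.

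Smo (chr6:29735407-29762532, plus strand), the membrane protein that passes the signal on, was the steadiest member. It measured 44.9, 44.7 and 44.7 TPM in the female pools and 46.4, 45.2 and 41.5 TPM in the male pools. Its range of log2 CPM was 0.09, and 98.0% of the tested genes had a wider one.

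Gli1 (chr10:127165751-127177865, minus strand), the factor whose mRNA depends most directly on Hedgehog signaling, measured 22.6, 25.5 and 27.9 TPM in the female pools and 27.3, 26.4 and 25.1 TPM in the male pools. Its lowest pool was female pool 1, the highest for Shh, and its highest pool was female pool 3, the lowest for Shh. Protein-coding Gli1-201 carried 67.4% ± 2.25 (SD, n = 6) of Gli1 TPM, and the retained-intron transcript Gli1-205 carried 30.1% ± 2.69. Because Gli1-205 is short, at 795 bases, that share of TPM came from 1394 of the 20015 estimated Gli1 reads.

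Gli2, which acts mainly as the activator, and Gli3, which acts mainly as the repressor, were much lower than Gli1 on the same per-length scale. Gli2 measured 3.18, 2.67 and 3.82 TPM in the female pools and 2.94, 2.97 and 2.76 TPM in the male pools. Gli3 measured 3.57, 3.10 and 2.95 TPM in the female pools and 3.58, 3.80 and 2.62 TPM in the male pools. The ranges of Gli2 and Gli3 overlapped, so their order was not settled by these pools.

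Hhip, the membrane-anchored inhibitor that binds the ligands, was barely expressed. It measured 0.198, 0.242 and 0.244 TPM in the female pools and 0.227, 0.320 and 0.187 TPM in the male pools, from 397 reads in all, at the 0.650th percentile of the tested genes. In order of mean TPM, Dhh stood first, followed by Ptch1, Smo, Shh, Gli1, Gli3, Gli2, Hhip and Ihh. The place of Shh in that order held for the mean only, since its single pools ran from above Ptch1 to below Gli2. The ranges of Dhh, Ptch1, Smo and Gli1 did not overlap one another.

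The design compares female with male sham nerves, and no Hedgehog gene passed the test of a difference. Of the 8 members tested, edgeR called 0 at its adjusted p threshold of 0.1, 0 members had an unadjusted p under 0.05 against 6.11% of all tested genes, and DESeq2 also called 0. The background was low, as edgeR called 10 of all 16310 tested genes (0.0613%) and DESeq2 called 159. The TPM of the sexes overlapped for all 9 members, and 11.0% of all tested genes had sexes that did not overlap. With so few members, these counts of 0 do not set the Hedgehog genes apart from the other genes.

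With females set over males, Shh had a log2 fold change of 1.11 (SE 1.49, edgeR adjusted p = 0.93), and its 95% interval from -2.93 to 5.15 was too wide to exclude a large difference in either direction. The value rested on single pools, being -0.22 without female pool 1, 0.69 without male pool 1, 1.69 without female pool 3 and 1.75 without male pool 3. That of Dhh was -0.04 (SE 0.10, edgeR adjusted p = 0.96), with an interval from -0.27 to 0.19. The intervals of Ptch1, Smo and Gli1 stayed within -0.22 and 0.17, far narrower than that of Shh. Gli2 had a log2 fold change of 0.25 (SE 0.16, edgeR adjusted p = 0.86), Gli3 of -0.07 (SE 0.14) and Hhip of -0.16 (SE 0.25). The median over the 8 tested members was -0.02, beside 0.0016 over all tested genes.

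**Figure D3:**
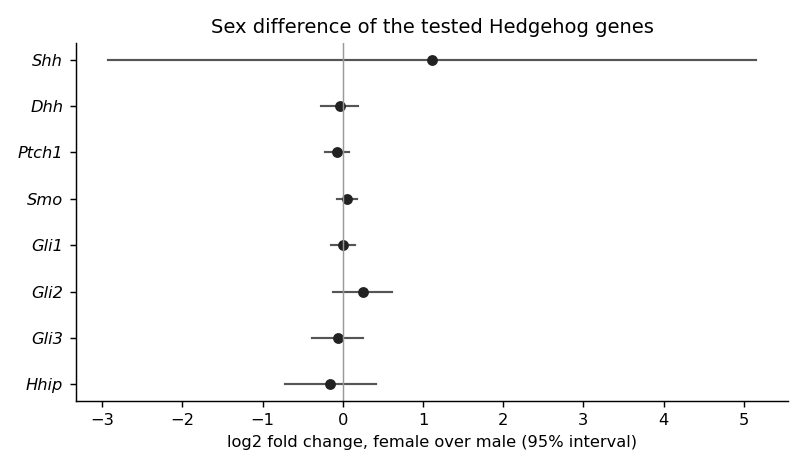
Log2 fold change, female over male, of the 8 tested Hedgehog genes with 95% intervals from the edgeR fit (3 pools per sex). Every interval includes 0, and that of Shh, from -2.93 to 5.15, is the widest.

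The further genes of the pathway were compared in the same fit. Of 50 genes listed, 47 were tested and 1 was called by edgeR, and 4 of all 16310 tested genes were called higher in females (0.0245%). The called gene was Igf2, a growth factor gene that Hedgehog signaling can induce. Igf2 measured 34.3, 35.4 and 36.6 TPM in the female pools and 23.1, 21.1 and 16.8 TPM in the male pools. The sexes did not overlap, and the log2 fold change was 0.81 (SE 0.10, edgeR adjusted p = 0.0905). The call did not hold without female pool 1, 2 or 3 or without male pool 1 or 2, where the edgeR adjusted p was 0.47, 0.27, 0.25, 0.18 and 0.23, or with a filter of 1 CPM, where it was 0.10. DESeq2 gave an adjusted p of 3.2e-09 with the same log2 fold change of 0.81.

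All 7 genes for release and processing of the ligands were tested and 0 were called by edgeR or had an unadjusted p under 0.05. Among them, Scube1, a secreted protein that helps free the lipid-bearing ligand, had a mean of 30.0 TPM and Disp1, the transporter that releases it, 25.1 TPM. Of the 8 co-receptor and ligand-binding genes, 7 were tested, and again 0 were called and 0 had an unadjusted p under 0.05. Gpc3, a glypican that binds Hedgehog ligands, had a mean of 346 TPM, and the co-receptor Gas1 42.4 TPM. All 22 genes of the cilium and signal transduction were tested and 0 were called, with 1 at an unadjusted p under 0.05. The highest there were the kinase Csnk1a1 at 186 TPM and Spop, which targets Gli proteins for degradation, at 167 TPM. Of 14 further target genes, 12 were tested, 2 had an unadjusted p under 0.05 and Igf2 was the 1 called, while the cyclins Ccnd1 at 56.2 TPM and Ccnd2 at 36.8 TPM were not. DESeq2 likewise called 1 gene over the 4 lists, against 159 of all 16310 tested genes.

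Whether the targets followed either ligand was asked over the 6 pools with log2(TPM + 0.1) and an exact permutation test over all pairings, adjusted over 6 relations. None of the targets Gli1, Ptch1 and Hhip had a positive r with Shh. Gli1 ran against Shh, with r = -0.90 (exact permutation p = 0.0153, adjusted p = 0.0917) and a rank correlation of -1 (exact permutation p = 0.00278, the smallest that 6 pools can give, adjusted p = 0.0167). Without female pool 3 and male pool 1, the pools farthest from the median of Shh, r was -0.99. The change in Gli1 was small, at -0.05 log2 units for each doubling of Shh. On the log2 CPM scale, where Gli1 had r = -0.74 with Shh, 6.22% of all tested genes had a lower r. On that scale 12.1% had an r at least as large in either direction.

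That relation depended on how Gli1 was measured. With log2 CPM in place of TPM, r was -0.74 (exact permutation, adjusted p = 0.55) and the rank correlation was -0.49. With protein-coding transcripts alone, Gli1 lay between 15.8 and 18.1 TPM and r was -0.66 (exact permutation, adjusted p = 0.86), with a rank correlation of -0.37. The retained-intron transcript Gli1-205 measured 6.61, 7.65 and 9.36 TPM in the female pools and 8.77, 7.89 and 6.47 TPM in the male pools, and had r = -0.91 with Shh. With 1 pool left out at a time, r stayed between -0.95 and -0.89, and the call held without female pool 1 (exact permutation, adjusted p = 0.05) but not without any other pool (adjusted p from 0.13 to 0.35). Pools of each sex are too few for a value within a sex.

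The other relations did not pass. Ptch1 had r = -0.41 with Shh (exact permutation, adjusted p = 0.81), and Hhip had r = -0.32 (exact permutation, adjusted p = 0.81). With Dhh, r was -0.56 for Gli1, -0.00026 for Ptch1 and -0.18 for Hhip (exact permutation, adjusted p = 0.77, 0.999 and 0.85). Dhh covered only 79.1 to 101 TPM, a narrow range over which to look for a relation. Without female pool 1, r of Dhh with Gli1 was -0.91 (exact permutation, adjusted p = 0.05). That relation also depended on how the genes were measured. With no pool left out, r of Dhh with Gli1 was -0.086 with log2 CPM and -0.14 with protein-coding transcripts alone.

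**Figure D4:**
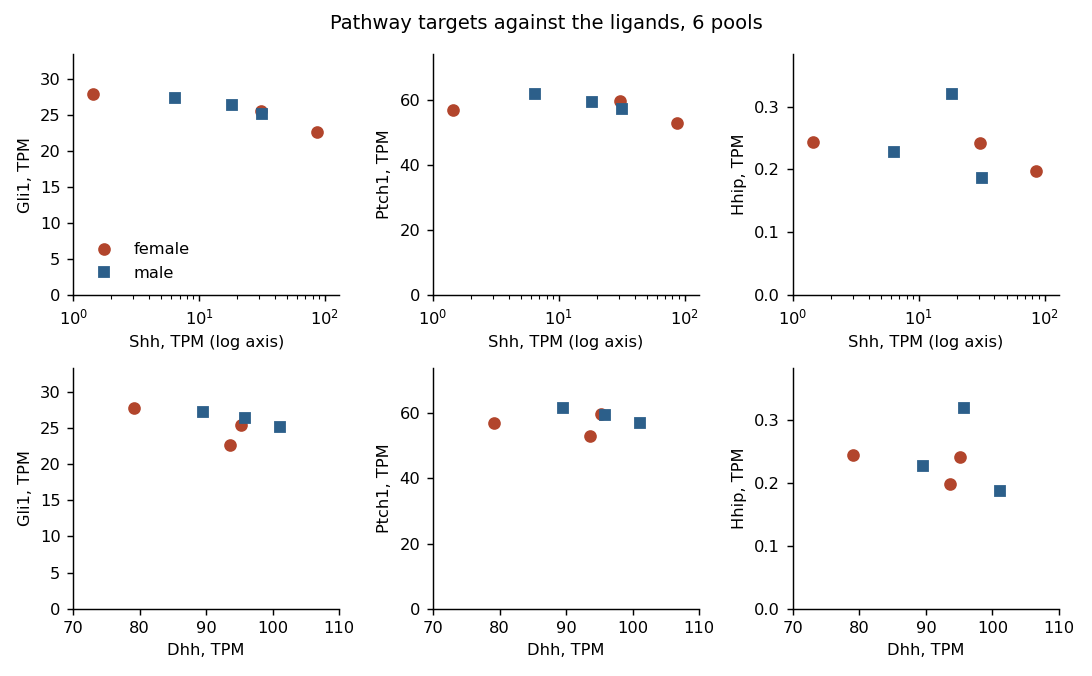
TPM of the targets Gli1, Ptch1 and Hhip against TPM of Shh (top, log axis) and Dhh (bottom) in the 6 pools, with female pools as circles and male pools as squares. Gli1 fell from 27.9 to 22.6 TPM as Shh went from 1.44 to 86.3 TPM, and the other panels show no relation that passed the test. The relation of Gli1 with Shh did not pass with log2 CPM or with protein-coding transcripts alone.

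The 47 further pathway genes were compared with Shh on the log2 CPM scale, to which every r in this paragraph belongs. Of them, 19 had a positive and 28 a negative r with Shh. After adjustment 0 passed the exact permutation test, the lowest adjusted p being 0.13. Scube1 measured 38.7, 31.5 and 21.9 TPM in the female pools and 26.4, 26.0 and 35.7 TPM in the male pools, with r = 0.91. Bmp4, which encodes a secreted growth factor and stands among the further targets, had the most negative r of -0.93, at 3.06, 3.30 and 4.68 TPM in the female pools and 6.01, 4.51 and 3.95 TPM in the male pools. Another further target, Foxc2, had a positive r of 0.83 (exact permutation, adjusted p = 0.36), so the further targets had r of both signs. Scube1 and Bmp4 shared the lowest adjusted p. Gas1 also had a negative r, with 30.5, 34.2 and 55.9 TPM in the female pools and 51.1, 50.3 and 32.3 TPM in the male pools, with r = -0.86. The summed level of 8 epineurial fibroblast markers also ran opposite to Shh, at 945, 940 and 1308 TPM in the female pools and 1110, 1097 and 931 TPM in the male pools. So did that of 8 endothelial markers, at 329, 374 and 380 TPM in the female pools and 424, 375 and 324 TPM in the male pools. The sum of 9 white adipocyte markers was also highest in female pool 3. It was 1160, 1519 and 2225 TPM in the female pools and 1192, 1176 and 1057 TPM in the male pools. The part of any of these cell types in the levels of Gas1, Bmp4, Gli1 and Shh was not tested. The summed Schwann cell markers were lowest in female pool 1, at 33899 TPM, and 39248 to 43132 TPM in the other pools.

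The genes whose levels ran most like Shh lay outside the pathway lists. Ranked by r of log2 CPM over the 6 pools among 16309 other genes, the first 10 included Cplx3, 1700001L05Rik, Clca3a2, Gm49304, Crabp2, Ntn5, Nrcam, Tubb2b and 6330403L08Rik, with r between 0.978 and 0.997. This ranking for Shh was added after the values were seen, and these values are the highest of many over only 6 pools. Crabp2, which carries retinoic acid in the cell, measured 42.8, 25.1 and 10.3 TPM in the female pools and 18.2, 22.5 and 28.95 TPM in the male pools. Crabp2 was highest in female pool 1 and lowest in female pool 3, as Shh was. Cplx3, a complexin of synaptic vesicle release, had the widest span of these 10 genes at 91.4-fold, from 0.0581 to 5.31 TPM. The neural adhesion gene Nrcam and the tubulin gene Tubb2b spanned 2.31-fold and 2.30-fold.

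**Figure D5:**
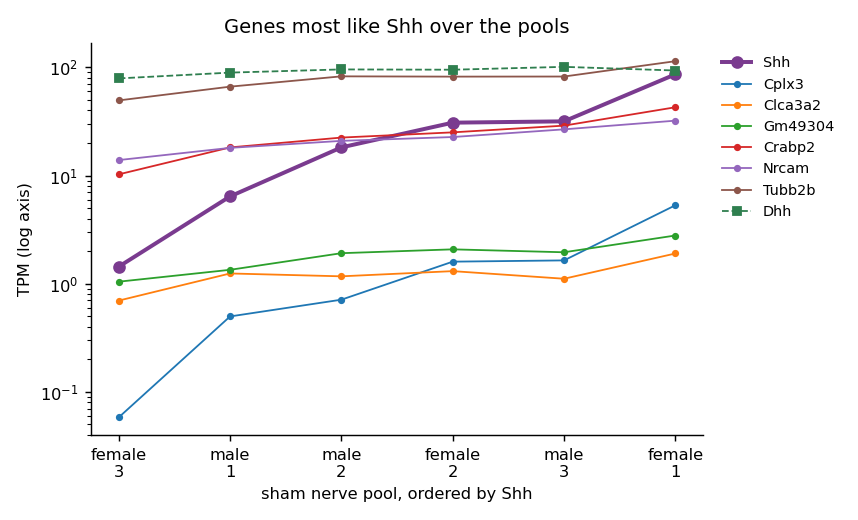
TPM (log axis) of Shh, of Dhh and of 6 of the 10 genes most like Shh, each with a highest pool over 2 times its lowest, with the 6 pools ordered by Shh. Shh went from 1.44 to 86.3 TPM and Crabp2 from 10.3 to 42.8 TPM, while Dhh stayed between 79.1 and 101 TPM.

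Ligand genes that the study reports as upregulated in both sexes after axotomy were set beside Shh on the log2 CPM scale. Those it reports for a single sex were left out. The choice was made after the Shh values were seen, so the genes are given without a test. Of these 10 genes 9 had enough reads to test, 8 had a positive r with Shh, and 5 had r above 0.8, against 3.56% of all tested genes. The negative r was that of Calca, at -0.13. The urocortin gene Ucn2 measured 10.1, 2.57 and 0.637 TPM in the female pools and 2.15, 1.34 and 3.05 TPM in the male pools. Gdnf, which encodes a neurotrophic factor, measured 2.68, 0.834 and 0.461 TPM in the female pools and 0.922, 0.651 and 1.48 TPM in the male pools. In both genes female pool 1 was the highest and female pool 3 the lowest.

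The genes most like Dhh were Atp9b, Tgif2, Spock1, Ggct and Pcbd2, with r from 0.97 to 0.99 over 6 pools, and those most like Gli1 were Gm6277, Bcas1, Tbc1d7, Rbak and A330015K06Rik, with r from 0.986 to 0.994. None of these 10 genes had a highest pool over 1.69 times its lowest. Of the 4415 31-base words in Dhh transcripts, 486 also occurred in transcripts of the neighboring gene Rhebl1, so a part of Dhh reads rests on how the software divided them. Gli1 and Hhip shared no such word with another gene.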

How the data were processed

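Left sciatic nerves of 3 female and 3 male pools were profiled by strand-specific poly-A RNA-seq. The samples are labelled as whole nerve, whereas the paper's methods describe collecting proximal segments. The authors trimmed reads with Trimmomatic 0.39 and quantified GENCODE mouse transcripts (GRCm39) with Salmon, version 1.5.2 per the submitters' processing notes. The sources differ on the versions of Salmon and GENCODE. The deposited values are an estimated count of read pairs, a TPM and an effective length for each transcript in each pool. The estimated counts were deposited without further scaling. TPM as deposited by the authors sums to the same total in every pool, so it is a share and moves with the rest of the pool.

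Here values of 140789 transcripts were summed to 54309 genes, and estimated counts were rounded. The 16310 genes that reached 0.5 CPM in 3 or more pools were tested. Sexes were compared with edgeR 4.0.16 (TMM, robust quasi-likelihood fit, no covariate, Benjamini-Hochberg threshold 0.1 as in the study), and DESeq2 1.42.0 served as an alternative. Intervals of fold changes use the t distribution of that fit. Pools of 2 mice were separate samples, and the sources do not state that replicate numbers pair the sexes. Alternatives were other size factors, filters, thresholds, length offsets, pseudocounts, units and leaving out each pool, as well as protein-coding transcripts alone, which for the correlations was added after the data were seen. Scripts were tested on simulated data. Members and gene lists were chosen with earlier results of these data known. Named genes were all members, for each further list the genes called and the 2 with the highest mean TPM, and the 5 genes most correlated with Dhh and with Gli1. Scube1, Bmp4, Foxc2 and Gas1 beside Shh, the 10 genes most like Shh, and the ligand genes set beside Shh were added later. Coordinates and sequences are from GENCODE M39 on GRCm39, a later release than the authors used, matched by transcript name. Total estimated counts were 55949876 to 66285694 in female and 59165914 to 78473057 in male pools. Correlations used NumPy 2.4.6 and SciPy 1.17.1. Some genes that met these rules are not reported here.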

Additional observations from a re-analysis of the deposited data

How the results depend on the processing

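No member was called under any alternative run, and of 95 alternative values of member fold changes 86 kept their sign and 9 turned it. With 1 pool left out, log2 fold changes ranged from -0.22 (without female pool 1) to 1.75 for Shh, from -0.12 to 0.057 for Dhh (positive without female pool 3, at 0.017, or male pool 3), from -0.038 to 0.046 for Gli1 (positive without female pool 1 or, at 0.028, male pool 3), from -0.20 to 0.041 for Gli3 and from -0.31 to 0.11 for Hhip (both positive without male pool 2). Gli1 was also positive with DESeq2 (0.00054) and other size factors (0.00018). Over all genes, edgeR called 10, DESeq2 159, edgeR with no filter 49, and 3 to 8 with 1 pool left out. Female and male pools of the same replicate number did not deviate together (correlations of -0.18, -0.13 and -0.10, and no pool correlated best with its own number). With so few pools per sex, these values cannot settle whether same-number pools were handled together. With the replicate block 5 genes were called, and 0 further pathway genes instead of 1. That pathway count was also 0 at an adjusted p of 0.05 and with a filter of 1 CPM, and 0 to 1 with 1 pool left out. Igf2 had an edgeR adjusted p of 0.32 with the block. For Shh with Gli1, r was -0.90 with a pseudocount of 0.01 TPM (exact permutation, adjusted p = 0.12), -0.74 with log2 CPM, -0.66 with protein-coding transcripts and -0.95 to -0.89 with 1 pool left out, which leaves 5 pools for the test. With 1 pool left out, r ranged from -0.91 (without female pool 1, where it passed) to -0.23 for Dhh with Gli1, from -0.29 to 0.13 for Dhh with Ptch1, from -0.70 to 0.17 for Dhh with Hhip and from -0.91 to 0.16 for Shh with Ptch1. With no pool left out, Dhh with Gli1 had r = -0.086 with log2 CPM and -0.14 with protein-coding transcripts. Dhh with Ptch1 was positive with protein-coding transcripts (0.054) and without female pool 1 (0.13), male pool 1 (0.12) or male pool 3 (0.079), Shh with Ptch1 without female pool 1 (0.16), and Dhh with Hhip without male pool 3 (0.17). The cause was not tested. Percentiles of level moved by more than the spread between pools in 15 of 72 alternative values, all with CPM, which is not per length, or protein-coding transcripts, which leave out part of the transcripts. Ihh, below the filter, was not called with no filter.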
